A study of Mus musculus with 12 samples.

Results

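The INK4 inhibitors and p53 targets followed here in spontaneous lung tumours of aged mice are 10 genes: 3 that encode INK4 inhibitors of the cyclin D kinases (Cdkn2a, Cdkn2b and Cdkn2c) and 7 that the tumour suppressor p53 is known to switch on (Cdkn1a, Ccng1, Mdm2, Trp53inp1, Sesn1, Sesn2 and Bbc3). They were chosen by symbol, from probe sets that the platform annotation gives a single gene, and are 10 of 18193 genes measured in all. Where a gene had several probe sets, the brightest on average over the 12 arrays stands for it, and all 10 genes, with 20 probe sets between them, entered the analysis without a filter. The samples were 6 spontaneous lung tumours of untreated B6C3F1 mice and, as the controls, 6 normal lungs of the same hybrid strain, a cross of C57BL/6 and C3H. All were taken at 2 years of age in a National Toxicology Program bioassay, with 1 Affymetrix array per sample. Each array measured the RNA of a piece of frozen tissue, so a lower signal cannot be told apart between fewer cells of a type and less RNA per cell. The labels give neither the sex of the mice nor whether the samples came from separate animals, so a p-value here reflects how far these particular samples spread.

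INK4 proteins bind the kinases CDK4 and CDK6, keep them from cyclin D, and so leave the retinoblastoma protein able to hold back entry into S phase. Cdkn2a and Cdkn2b form the Ink4 locus, a region often deleted or silenced in tumours and known for rising with age and senescence. p53 is a transcription factor activated by DNA damage and oncogenic signals. Its targets stop the cycle (Cdkn1a), limit p53 itself (Mdm2), restrain growth signalling and oxidative stress (the sestrins) or trigger apoptosis (Bbc3). In mouse lung tumours both the Ink4 locus and the p53 pathway are known barriers to progression.

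In GRCm38.p6 Cdkn2a lies at chr4:89274473-89294619 and Cdkn2b at chr4:89306289-89311032, with 11669 bases between them. Cdkn2c is on the same chromosome, at chr4:109660876-109666756, and so is a member of the INK4 family but not of the Ink4 locus. Cdkn2a has 2 start sites. The distal start gives the transcript of p19Arf, which blocks Mdm2, and the proximal start gives that of p16Ink4a. The array holds 1 probe set for Cdkn2a, so the signals below do not separate p19Arf from p16Ink4a. The 100 bases before each start, from RefSeq, are shown to mark the separate promoters behind that single value, with every CG dinucleotide in capitals.
Distal start, chr4:89294620-89294719, minus strand: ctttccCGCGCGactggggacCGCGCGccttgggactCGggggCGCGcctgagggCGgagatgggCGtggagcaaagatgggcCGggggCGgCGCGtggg
Proximal start, chr4:89282193-89282292, minus strand: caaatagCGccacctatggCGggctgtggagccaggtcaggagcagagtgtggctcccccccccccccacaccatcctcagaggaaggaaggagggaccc
The distal sequence holds 15 CG dinucleotides and the proximal sequence 2.

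The 15 promoter windows that RefSeq lists for 9 of the members were searched for the p53 decamer, the 10-base consensus of which p53 binds a pair. The pattern reads the same on both strands, and only exact matches were counted. Within the 250 bases before the start, matches were found for Cdkn1a, Ccng1, Mdm2 and Sesn1, in 1 window of each, whereas 7.13% of all 32851 promoter windows held one. These 4 windows are printed in full, with matches in capitals, because 2 of their genes passed the test in opposite directions and the others did not pass.
Ccng1, chr11:40755287-40755536, minus strand: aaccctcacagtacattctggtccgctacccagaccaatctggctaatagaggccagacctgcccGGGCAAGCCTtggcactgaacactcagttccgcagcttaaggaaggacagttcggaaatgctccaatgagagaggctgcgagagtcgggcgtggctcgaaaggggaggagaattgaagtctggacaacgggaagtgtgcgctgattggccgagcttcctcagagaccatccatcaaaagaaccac
Sesn1, chr10:41887189-41887438, plus strand: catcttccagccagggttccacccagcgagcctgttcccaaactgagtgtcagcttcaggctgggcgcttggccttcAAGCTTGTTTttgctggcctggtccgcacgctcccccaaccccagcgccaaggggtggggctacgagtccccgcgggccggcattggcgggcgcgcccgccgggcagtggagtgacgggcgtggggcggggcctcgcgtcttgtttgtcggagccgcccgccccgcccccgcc
Cdkn1a, chr17:29090729-29090978, plus strand: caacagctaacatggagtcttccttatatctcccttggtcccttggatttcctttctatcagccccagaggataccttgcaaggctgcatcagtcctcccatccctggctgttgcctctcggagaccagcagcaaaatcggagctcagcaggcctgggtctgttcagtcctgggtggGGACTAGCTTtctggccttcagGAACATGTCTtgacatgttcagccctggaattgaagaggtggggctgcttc
Mdm2, chr10:117710759-117711008, minus strand: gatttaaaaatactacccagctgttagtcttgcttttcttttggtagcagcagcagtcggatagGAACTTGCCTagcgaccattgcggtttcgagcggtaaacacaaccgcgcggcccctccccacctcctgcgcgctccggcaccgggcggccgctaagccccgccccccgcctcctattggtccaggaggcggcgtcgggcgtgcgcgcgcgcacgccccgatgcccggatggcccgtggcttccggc
The Cdkn1a window, at the upstream start of that gene, held 2 exact matches within 13 bases of each other, a pairing found in 0.0639% of all windows. Pairs with an inexact member were not counted. Such near matches lie directly beside a marked one, tgacatgttc in the Cdkn1a window and agacctgccc in the Ccng1 window. The search therefore does not show that only Cdkn1a has a paired site. A match is a stretch of letters, not a measured binding site, and 11 of the 15 windows, among them another of Cdkn1a and another of Sesn1, held none.

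Of the 10 genes 2 were higher in tumours than in normal lungs and 2 were lower, while 29.5% of all genes were called in either direction. Ccng1 and Cdkn2a rose, Sesn1 and Cdkn2c fell, and the other 6 did not pass the threshold. Over all 18193 genes 12.1% were called higher and 17.4% lower, so these counts lie near the background. The members' median difference was 0.19, against -0.08 over all genes. Tumours and normal lungs were fully separated for 3 members (Ccng1, Sesn1 and Cdkn2c), beside 18.4% of all genes. The call rule was an adjusted p under 0.05 (limma, Benjamini-Hochberg over all 45037 probe sets, two-sided). Differences subtract the normal lung mean from the tumour mean of log2(signal + 16) and are given ± standard error with n = 6 arrays a group, and signals are the authors' linear MAS5 units.

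**Figure D1:**
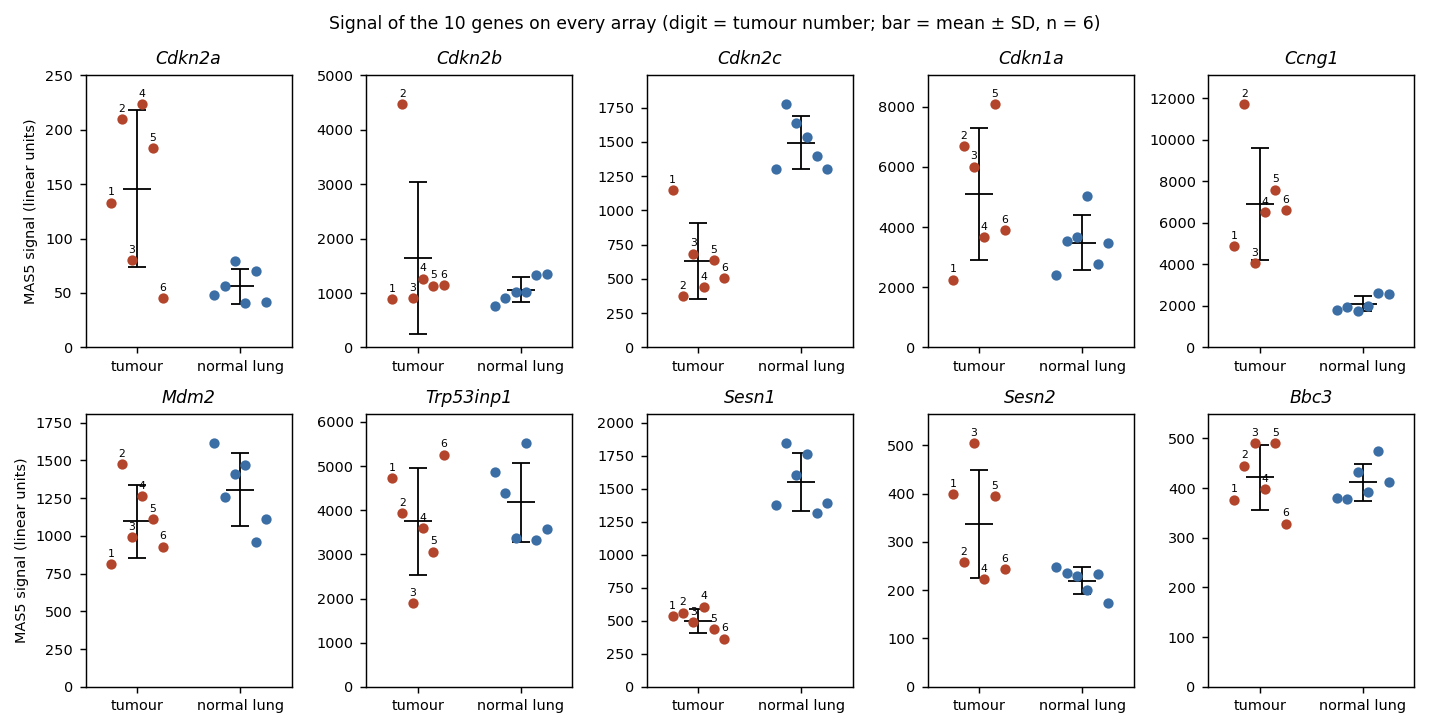
MAS5 signal in linear units of each gene in the 6 tumours (left, with tumour numbers) and the 6 normal lungs (right), with mean ± SD bars (n = 6). All tumours lie above all normal lungs for Ccng1 and below them for Sesn1 and Cdkn2c, and tumour 2 stands alone at 4477 for Cdkn2b.

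Among the INK4 inhibitors, Cdkn2a had signals of 133, 209, 80.5, 224, 183 and 45.5 in tumours 1 to 6, against 48.1, 56.1, 79.5, 40.9, 70.6 and 41.6 in normal lungs 1 to 6. Tumours 1, 2, 4 and 5 were clearly above every normal lung, tumour 3 was at the level of the highest normal lung, and tumour 6 was inside the normal range. Cdkn2a averaged 146 ± 72.1 in tumours and 56.1 ± 15.9 in normal lungs (SD), a difference of 1.04 ± 0.33 (limma adjusted p = 0.0327). It was the dimmest of the 10 genes, at the 31.4th percentile of all genes by mean log2 signal. The call was not firm. It was lost when any of normal lungs 1, 2, 4 or 6 or tumours 1, 2, 4 or 5 was left out (limma adjusted p 0.0541 to 0.0759), and was kept without tumour 6 (adjusted p = 0.00398).

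Cdkn2b encodes p15Ink4b, an inhibitor induced by TGF-beta. Its signals were 886, 4477, 908, 1264, 1137 and 1151 in tumours, against 770.3, 904, 1010.3, 1023, 1327 and 1348 in normal lungs. Tumour 2 stood far above the highest normal lung, and the other 5 tumours lay inside the normal range. As groups they did not differ beyond their spread, with 1637 ± 1399 in tumours and 1064 ± 231 in normal lungs (SD), a difference of 0.36 ± 0.32 (95% interval -0.32 to 1.05, limma adjusted p = 0.465). Without tumour 2 the difference was 0.02 (limma adjusted p = 0.946). Cdkn2a and Cdkn2b, neighbours in the locus, thus had different orders among the tumours, though tumours 2 and 4 ranked highest for both. Their correlation was positive and did not pass (Pearson r = 0.45, exact permutation p = 0.369, adjusted p = 0.734, Spearman rho = 0.54). Cdkn2a was higher in tumour 4 than in any other, where Cdkn2b was second among the tumours but at a normal level.

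Cdkn2c encodes p18Ink4c, an inhibitor that many cells make as they cycle and differentiate. It fell, with 1147, 375, 684, 439.6, 636 and 508 in tumours, against 1300.2, 1778, 1639, 1536, 1393 and 1304 in normal lungs. Every tumour was below every normal lung, tumour 1 by a small margin and tumour 2 by the largest. The means were 632 ± 278 in tumours and 1492 ± 193 in normal lungs (SD), a difference of -1.31 ± 0.21, or 2.47-fold lower (limma adjusted p = 0.00036). Cdkn2d, the remaining INK4 gene, which encodes p19Ink4d, was also lower, with 546 ± 63 in tumours and 1168 ± 696 in normal lungs (SD, n = 6; -0.94 ± 0.24, limma adjusted p = 0.00846). Normal lung 1, at 2586, stood above the other normal lungs (816 to 971), and no tumour exceeded 641. Cdkn2d was not among the members chosen for study and was named after its values were seen. With it included, 1 of the 4 INK4 genes was called higher, 2 lower and 1 neither way. Over all genes 12.1% were called higher and 17.4% lower.

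Ccng1 encodes cyclin G1, an early p53 target that recruits a phosphatase to Mdm2. It had 4863, 11728, 4045, 6518, 7599.6 and 6602 in tumours, against 1819.8, 1937, 1765, 1975, 2618 and 2575 in normal lungs. The lowest tumour, tumour 3, exceeded the highest normal lung. Ccng1 averaged 6893 ± 2696 in tumours and 2115 ± 381 in normal lungs (SD), a difference of 1.63 ± 0.21, or 3.10-fold higher (limma adjusted p = 4.6e-05). The other 2 probe sets of Ccng1 rose as well, by 1.27 ± 0.24 and 1.05 ± 0.17 (limma adjusted p = 0.00103 and 2.5e-04), again with no overlap between the groups.

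Sesn1, a stress-induced inhibitor of mTORC1 signalling, moved the other way. Its signals were 534, 562, 490.5, 607, 434 and 364 in tumours, against 1374, 1845, 1603, 1762, 1318 and 1394 in normal lungs. On this probe set the groups were far apart, and the tumours differed little among themselves. Sesn1 averaged 498 ± 88.6 in tumours and 1549 ± 221 in normal lungs (SD), a difference of -1.61 ± 0.14, or 3.06-fold lower (limma adjusted p = 1.2e-06). All 4 of its probe sets were called lower, with differences from -1.61 to -0.88. Over all 45037 probe sets 24.0% were called in either direction. On 1 probe set, the weakest (limma adjusted p = 0.0301), the groups overlapped, with tumours 1 and 4 at 749 and 575 inside the normal lungs' 497 to 990.3.

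Sesn2, the paralogue of Sesn1, did not pass. It had 398, 258, 504, 223, 395 and 244 in tumours, against 248, 235, 230.0, 201, 233 and 173 in normal lungs. Tumours 1, 3 and 5 were well above the normal lungs, tumour 2 slightly above, and tumours 4 and 6 inside their range. The difference was 0.53 ± 0.20 (95% interval 0.10 to 0.97 before adjustment, limma adjusted p = 0.0744). Both probe sets were positive, and neither passed. The call depended on scaling: Sesn2 passed after quantile normalization (0.67, limma adjusted p = 0.0239) and with every array centred on its own median (0.72, limma adjusted p = 0.0154). It also passed when tumour 4 or tumour 6 was left out, with limma adjusted p = 0.0378 and 0.049. With Eif2s3y, a Y-linked gene high in tumours 1, 2, 3 and 5, as a covariate the difference was 0.18 (limma adjusted p = 0.703). Leaving out those tumours kept only tumours 4 and 6, the lowest in Sesn2 on this probe set, and gave 0.090 (limma adjusted p = 0.843). On the other probe set tumour 6 was again the lowest (81.7), but tumour 4, at 337, was above every normal lung (68.1 to 267).

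Cdkn1a encodes p21, the CDK inhibitor that carries out much of the p53 arrest. Its signals ranged widely, at 2255, 6681, 6011, 3666, 8098 and 3899.8 in tumours, against 2404, 3521, 3661, 5044, 2789 and 3468 in normal lungs. Tumours 2, 3 and 5 were above every normal lung and tumour 1 was below every normal lung. On the dimmer probe set tumour 2 (1167) was again above the normal lungs (475 to 963) and tumour 1 (364) below them. Tumours 3 (801) and 5 (833) lay inside that range. The group difference was 0.46 ± 0.27 on the brighter probe set (95% interval -0.11 to 1.04, limma adjusted p = 0.249), and on the dimmer probe set 0.07 ± 0.25. Without tumour 1 the difference on the brighter probe set was 0.67 and passed (limma adjusted p = 0.0453). Tumour 1 also had the highest 3' to 5' actin ratio, 1.32, against 1.17 to 1.19 in the other tumours, and the part of this in the result was not tested. With Eif2s3y as a covariate the Cdkn1a difference was 0.25 (limma adjusted p = 0.722). Without the tumours that carry Eif2s3y, which leaves only tumours 4 and 6, it was 0.16 (limma adjusted p = 0.718).

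The remaining targets did not differ beyond their spread. Mdm2, the ubiquitin ligase that degrades p53, had 812, 1477, 992, 1265, 1113 and 929 in tumours, against 1615, 1259, 1409, 1473, 963 and 1112 in normal lungs (-0.25 ± 0.16, 95% interval -0.60 to 0.09, limma adjusted p = 0.297). Tumours 1 and 6 were below every normal lung, and all 3 probe sets gave small negative differences that did not pass. Trp53inp1, a nuclear partner of p53 that promotes death and autophagy, had 4736, 3937, 1888, 3593, 3063 and 5261 in tumours, against 4860.4, 4396, 3379, 5522, 3331 and 3572 in normal lungs (-0.20 ± 0.22, 95% interval -0.67 to 0.27, limma adjusted p = 0.565). Tumours 3 and 5 were lower than the lowest normal lung and the others lay in the normal range.

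Bbc3 encodes Puma, the BH3-only protein that p53 uses to start apoptosis. It had 377, 445, 491, 398, 490.2 and 328 in tumours, against 380.1, 377, 432, 393, 474 and 413 in normal lungs. It varied least among the tumours of the 10 genes, and its difference was 0.02 ± 0.13, with a 95% interval of -0.26 to 0.31 (limma adjusted p = 0.927). Tumours lay on both sides of the normal range, tumours 3 and 5 above it, tumour 6 below it and tumour 1 at its lower edge.

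**Figure D2:**
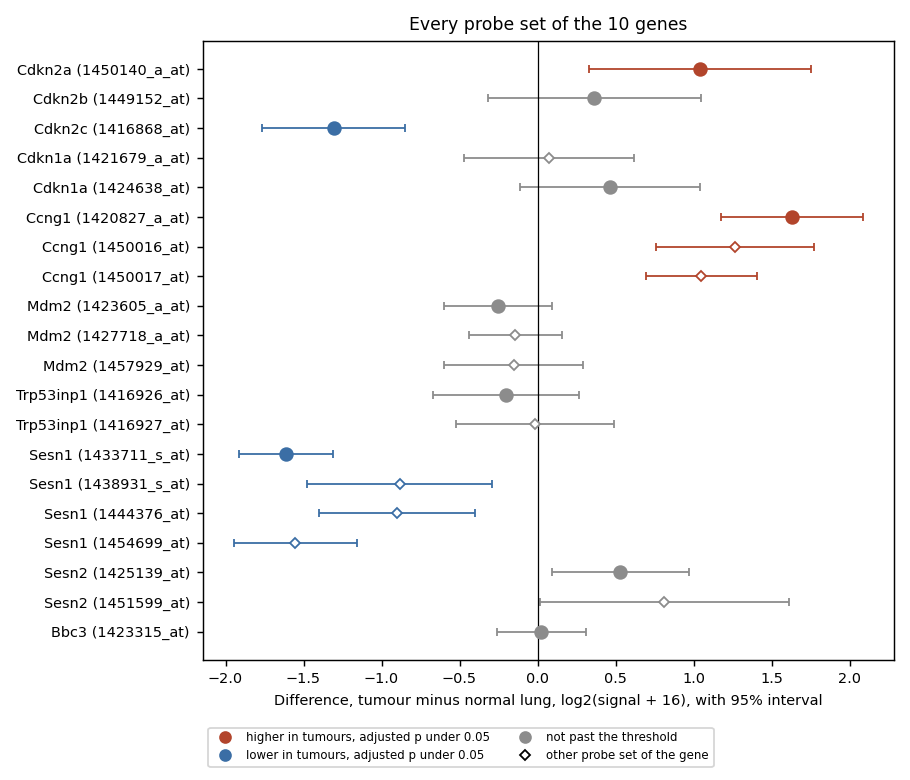
Difference (tumour minus normal lung, log2(signal + 16)) with its unadjusted 95% interval for all 20 probe sets of the 10 genes, filled circles marking the probe set that represents the gene. The 3 probe sets of Ccng1 lie right of 0 and the 4 of Sesn1 left of it, from -1.61 to -0.88.

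Compared with each other, the tumours varied more than the normal lungs. The SD of log2(signal + 16) was larger among tumours for all 10 genes, as it was for 69.4% of all genes. The spread was widest for Cdkn2b (0.87 in tumours, 0.31 in normal lungs), Cdkn2a (0.78 in tumours, 0.31 in normal lungs) and Cdkn1a (0.68 in tumours, 0.36 in normal lungs). It was narrowest for Bbc3 (0.22 in tumours, 0.12 in normal lungs) and Sesn1 (0.26 in tumours, 0.20 in normal lungs). For Sesn1 this held only on the probe set that represents it. Its other probe sets had SDs of 0.68, 0.44 and 0.43 in tumours.

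Tumour 2 ranked first of the tumours for Cdkn2b, Ccng1 and Mdm2, second for Cdkn2a, Cdkn1a and Sesn1, and last for Cdkn2c. Against the mean of the normal lungs, its Cdkn2b was 2.08 higher, its Ccng1 2.48 higher and its Cdkn2c at -1.94. Tumour 1 had the least Cdkn1a (-0.58), Mdm2 (-0.65) and Cdkn2b (-0.23), and the most Cdkn2c (-0.36). Tumour 3 combined the most Sesn2 (1.15) with the least Trp53inp1 (-1.11) and the least Ccng1 (0.95). Tumour 6 had the lowest Cdkn2a (-0.20), Sesn1 (-2.03) and Bbc3 (-0.31). These ranks are those of the probe set that represents each gene. On another probe set of Sesn1, tumour 2 was the lowest (175) and tumour 6 was at 182. On the other Sesn2 probe set tumour 1 was the highest (344), with tumour 3 at 315. On the remaining Ccng1 probe sets tumour 1 was the lowest (2036 and 2508), with tumour 3 at 2229 and 2577. Tumour 3 was again the lowest on the other Trp53inp1 probe set (197). Each tumour is a single array, so differences between single tumours have no replicate and no test.

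**Figure D3:**
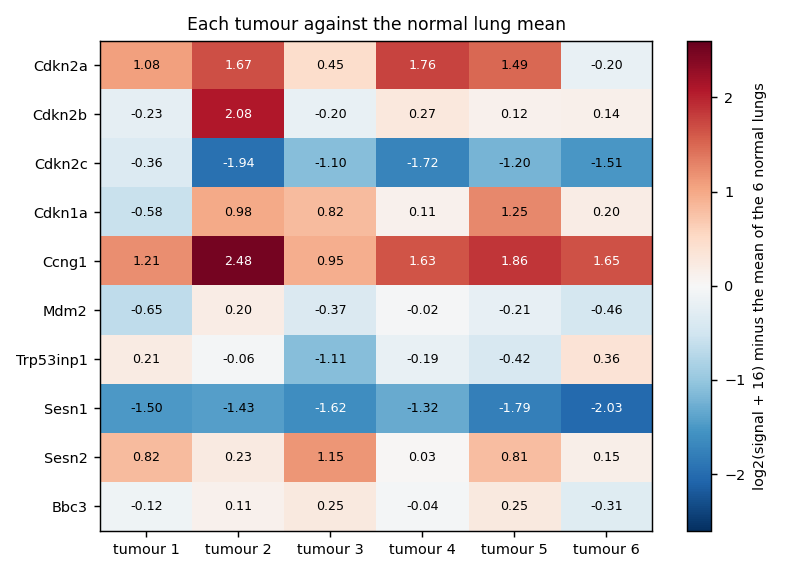
log2(signal + 16) of each gene in each tumour minus the mean of the 6 normal lungs, red for higher and blue for lower. Ccng1 is positive (0.95 to 2.48) and Sesn1 negative (-2.03 to -1.32) in every tumour, while Cdkn2b departs in tumour 2 (2.08).

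Relations between members were looked for among the 6 tumours. None of 45 pairs passed after Benjamini-Hochberg adjustment by Pearson's r or by Spearman's rho. With 6 tumours the smallest exact permutation p possible by r was 0.00139, too large for 1 pair alone to pass over 45 pairs. By rho even exactly opposite orders gave an adjusted p of 0.125. The lack of a passing pair therefore does not show that the members are unrelated. By r 4 pairs had a raw exact permutation p under 0.05, and by rho 2 had. The smallest was that of the INK4 genes Cdkn2b and Cdkn2c by rank, whose orders among the tumours were exactly opposite (rho = -1.0, exact permutation p = 0.00278, adjusted p = 0.125; Pearson r = -0.71, exact permutation p = 0.151, adjusted p = 0.615). Without the 2 tumours farthest from the median of Cdkn2b its r was -0.84. Values of r without those tumours rest on the remaining 4 and were not tested. By r the smallest was that of Cdkn2b and Mdm2 (Pearson r = 0.82, exact permutation p = 0.0125, adjusted p = 0.375; Spearman rho = 0.83, exact permutation p = 0.0583, adjusted p = 0.525). Without those tumours its r was 0.58. Cdkn2b and Ccng1 came next (r = 0.88, exact permutation p = 0.0167, adjusted p = 0.375; rho = 0.71, exact permutation p = 0.136, adjusted p = 0.612), with r = 0.85 without those tumours.

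Over the 12 arrays, the brighter genes with a pattern most like each member were ranked by Pearson correlation, as a description. The points share the difference between tumours and normal lungs and the scaling of each array. For Sesn1 these were Ppp1r2 (r = 0.99), Ackr2 (r = 0.99) and Sptbn1 (r = 0.99), for Cdkn2c they were Rexo2 (r = 0.97), Grb10 (r = 0.97) and D2hgdh (r = 0.96), and for Ccng1 they were Nrip1 (r = 0.97), Ppa1 (r = 0.96) and Ltbp3 (r = 0.96). Cdkn2a was most like Mrpl54 (r = 0.94), followed by the p53 target Zmat3 (r = 0.88) and St8sia6 (r = 0.88). Cdkn2b was most like Procr (r = 0.95), Ikbkb (r = 0.91) and Zdhhc21 (r = 0.91). Cdkn1a, Mdm2, Trp53inp1, Sesn2 and Bbc3 had best matches of 0.86 to 0.92 in Klhl26, Ifi27, Ighm, Cthrc1 and Nupr1.

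Other p53 targets also held genes in both directions. Of 26 further targets measured, 7 rose, 2 fell and 17 did not pass (median 0.15), beside 12.1% higher and 17.4% lower over all genes. The risers with the smallest adjusted p were Zmat3 (0.88 ± 0.15), an RNA-binding protein, the sestrin Sesn3 (1.09 ± 0.21), the DNA repair gene Ddb2 (0.67 ± 0.15) and the growth arrest gene Gadd45a (1.24 ± 0.30). Zmat3 averaged 1303 ± 270 in tumours and 695 ± 102 in normal lungs, and Ddb2 606 ± 138 in tumours and 371 ± 54.3 in normal lungs (SD, n = 6), both without overlap. The other 3 were Perp, Plk2 and Eda2r. Fas, the death receptor, fell to 345 ± 202 in tumours, against 1346 ± 211 in normal lungs (SD; -2.06 ± 0.27). Rrm2b, a ribonucleotide reductase subunit, fell by 0.59 ± 0.12. Adjusted p-values of these 6 named genes ran from 4.1e-05 (Fas) to 0.0064 (Gadd45a). Within the sestrin family Sesn3 was thus called higher and Sesn1 lower.

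Of 20 regulators of p53, 3 rose, 3 fell and 14 did not pass (median -0.01), beside 12.1% higher and 17.4% lower over all genes. Trp53 itself was not analysed here. The checkpoint kinase Chek1 (1.68 ± 0.40), the repair gene Brca1 (1.09 ± 0.30) and Ppp1r13l (0.63 ± 0.18), which encodes the p53 inhibitor iASPP, rose. Trp53bp2 (-1.23 ± 0.13) and Ppp1r13b (-0.68 ± 0.13), which encode the p53 activators ASPP2 and ASPP1, fell, as did the coactivator Crebbp (-0.47 ± 0.11). Trp53bp2 averaged 756 ± 146 in tumours and 1773 ± 59.8 in normal lungs (SD, n = 6). Mdm4, the partner of Mdm2, did not pass (-0.08 ± 0.16, limma adjusted p = 0.772).

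Among 22 partners and targets of the INK4 proteins 5 rose, 7 fell and 10 did not pass (median -0.39). Over all genes the shares were 12.1% higher and 17.4% lower. Ccnd1, a D-type cyclin that binds the kinases INK4 proteins block, averaged 10265 ± 3142 in tumours and 4453 ± 436 in normal lungs (1.16 ± 0.17). Cdk4 averaged 2232 ± 442 in tumours and 1143 ± 131 in normal lungs (0.94 ± 0.15), with no overlap for either gene. Tfdp1 (0.80 ± 0.16), a partner of E2F factors, and E2f3 (0.68 ± 0.17) also rose. Ccnd3 (-1.13 ± 0.15), Tfdp2 (-0.90 ± 0.17), the CDK inhibitor Cdkn1c (-2.02 ± 0.21) and the retinoblastoma gene Rb1 (-0.71 ± 0.16) fell. Rb1 averaged 1118 ± 318 in tumours and 1798 ± 198 in normal lungs, with tumour 1 inside the normal range. Adjusted p-values of these 8 genes ran from 5.3e-06 (Cdkn1c) to 0.00799 (E2f3).

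The list of 16 regulators of the Ink4 locus had 3 higher, 5 lower and 8 not called (median 0.16). Of all genes 12.1% were called higher and 17.4% lower. The Polycomb genes Ezh2 (1.52 ± 0.22), Bmi1 (0.65 ± 0.13) and Pcgf2 (0.83 ± 0.26), whose products are known to silence the locus, rose. Another Polycomb gene, Cbx7, fell (-0.96 ± 0.19). The T-box repressors Tbx3 (-3.53 ± 0.22) and Tbx2 (-2.68 ± 0.18), also known to repress the locus, fell, with Tbx3 at 148 ± 58 in tumours and 1819 ± 332 in normal lungs (SD, n = 6). Ets1, an activator of the p16Ink4a promoter in human cells, fell as well (-1.49 ± 0.20). Adjusted p-values of the 7 ran from 1.0e-07 (Tbx3) to 0.0275 (Pcgf2).

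**Figure D4:**
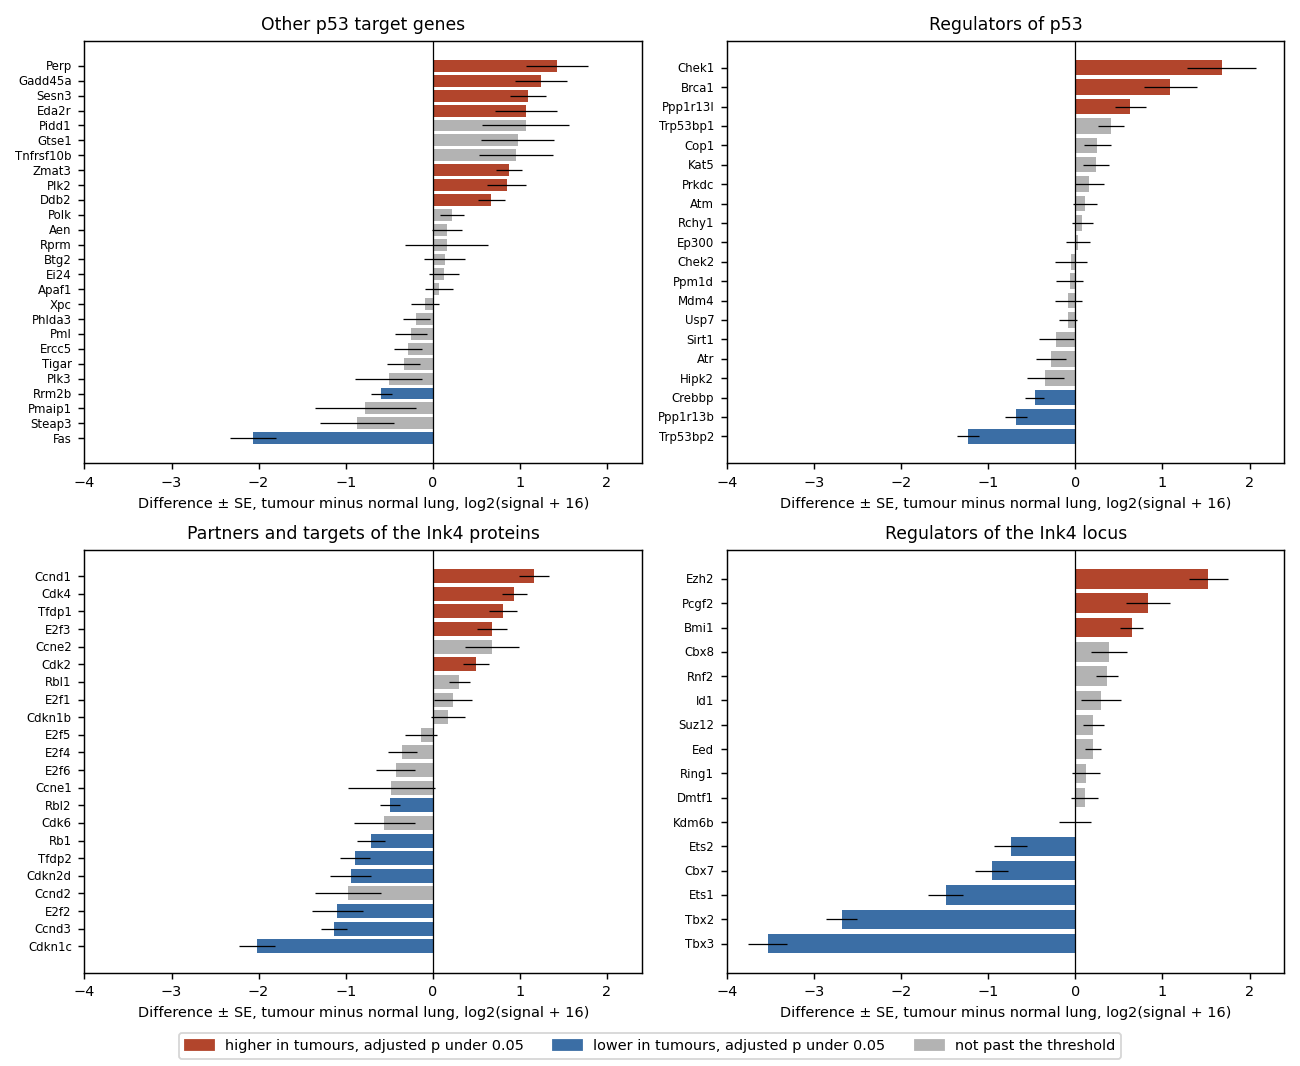
Difference ± standard error (tumour minus normal lung, log2(signal + 16), n = 6 a group) of each gene in 4 lists, red where called higher, blue where called lower and grey where the threshold was not passed. Every list holds genes in both directions, with 7 of 26 other p53 targets higher and 2 lower, beside 12.1% and 17.4% of all genes.

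Markers of several cell types moved with these genes, where 12.1% of all genes were called higher and 17.4% lower. All 8 endothelial, 8 fibroblast and smooth muscle and 6 ciliated markers were lower, as Sesn1, Cdkn2c, Fas and Tbx3 were. The summed endothelial signal was 2899 to 9222 in tumours and 46430 to 64204 in normal lungs, the fibroblast and smooth muscle sum 3419 to 12210.1 in tumours and 37286 to 60380.0 in normal lungs, and the ciliated sum 606 to 2392 in tumours and 8846 to 11654 in normal lungs. Of 11 proliferation genes 9 were higher, as Ccng1 and Cdkn2a were, with sums of 11188 to 25821 in tumours and 7757 to 9881 in normal lungs. Of 8 macrophage markers 4 were higher and 1 lower (sums of 13612 to 33607 in tumours and 9323 to 14406 in normal lungs). Of 7 type II cell markers, among them the defining surfactant genes Sftpb and Sftpc, 3 were higher and none lower, with sums of 109069 to 241921 in tumours and 118787 to 164436 in normal lungs. No marker was listed at 0, and the part of these cells in the members' differences was not tested.

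Of 7 T and natural killer cell markers 4 were lower, and of 5 B and plasma cell markers 2 were lower, beside 17.4% of all genes. The 5 neutrophil and 5 liver markers held no call. Normal lungs 2 and 4 carried liver transcripts (sums of up to 20356 on normal lungs and up to 5904 on tumours), and normal lung 1 had a neutrophil sum of 162970.3. The Y-linked gene Eif2s3y was at 740.5 to 1638 in tumours 1, 2, 3 and 5 and at 27.4 or less on all other arrays. It was high in tumours only, so it is partly confounded with group. Its part in the group differences cannot be told apart. Ccng1, Sesn1 and Cdkn2c kept their calls with Eif2s3y as a covariate, without those 4 tumours and without normal lungs 2 and 4. The Cdkn2a call was lost in all 3 settings (0.86, 0.78 and 0.97, with limma adjusted p = 0.245, 0.341 and 0.116). Without those 4 tumours only tumours 4 and 6 remained.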

How the data were processed

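Each of the 12 tissue samples, 6 of them tumours, was measured on its own array. The authors deposited a linear signal intensity for every probe set. The submitters' processing notes name MAS5 as the tool, and neither version nor settings are given in the sources used here. Every array had the same 2% trimmed mean (500.0), so the authors' scaling was kept. Median signals were 126 to 149.8 in tumours and 151 to 164 in normal lungs, the 3' to 5' actin ratio was 1.17 to 1.32 in tumours and 1.16 to 1.19 in normal lungs, and 14.6% to 15.9% of probe sets in tumours and 12% to 15.2% in normal lungs lay under the offset of 16. The number of arrays limits the precision.

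After 64 array controls were left out, 45037 probe sets were fitted as log2(signal + 16) with limma 3.58.1 in R 4.3.3 (intensity trend, no covariate), adjusted over all of them. The offset shrinks differences of dim probe sets. Symbols came from GEO's platform annotation, in which 34945 probe sets had 1 symbol, 932 several and 9160 none listed, and were checked by gene identifier against RefSeq (GRCm38.p6), where 18031 of 18193 genes were found and none differed. Named were all members, up to 4 genes per list and direction with the smallest adjusted p, Mdm4, Cdk4, Ccnd1 and Rb1, and the 3 genes most like each member; Cdkn2d, Perp, Plk2 and Eda2r were named after their values were seen. Members, lists and tests were chosen with earlier results of these data known. Genes of the lists with no single-gene probe set were not analysed here. The fit was tested on simulated data. Pairs of members were tested with exact permutation in Python 3.11.15 and scipy 1.17.1.

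Replicate numbers gave no sign of pairing the samples. Deviations of same-numbered arrays correlated at -0.0178 to 0.0217, and 0 of 6 tumours correlated best with the normal lung of their own number. Pairing that leaves no shared deviation would not show in this check. Alternatives were other offsets, scalings, filters, weights and covariates, the replicate block, all probe sets of a gene averaged, and arrays left out.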

Additional observations from a re-analysis of the deposited data

Results flagged for a closer look

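Cdkn2b in tumour 2 (4477) stood apart from the other 5 tumours, with a gap to the nearest of them of 0.782 of the group's range on the log2(signal + 16) scale. Among the other genes whose differences are given, the normal lungs held 7 such values. Normal lung 1 was the highest for Cdkn2d (2586) and Gadd45a (595) and the lowest for Tbx3 (1171) and Eda2r (44.4), normal lung 2 was the highest for Fas (1760.1), and normal lung 5 was the highest for Rrm2b (1420.0) and Zmat3 (899). Chance flags about 1 in 20 groups, and 84 groups were looked at, 8 of them for genes chosen after their values were seen (Cdkn2d, Perp, Plk2 and Eda2r). Genes named only for their correlation with a member were not looked at. No explanation of these values was tested.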

How the results depend on the processing

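Ccng1, Sesn1 and Cdkn2c kept their direction and call under all 12 alternatives and with any 1 array left out, where their differences were 1.46 to 1.77, -1.67 to -1.53 and -1.49 to -1.18. Cdkn2a lost its call with Eif2s3y as a covariate (0.86), without normal lungs 2 and 4 (0.97) and without the tumours that carry Eif2s3y (0.78), had 0.90 to 1.29 with 1 array left out, and had no value under the filter on dim probe sets. Sesn2 passed with array weights (0.58), the dim filter (0.53), median centring (0.72) and quantile normalization (0.67), and had 0.41 to 0.63 with 1 array left out, but 0.18 with the covariate and 0.090 without the Eif2s3y tumours. In those settings Cdkn1a had 0.25 and 0.16, and Cdkn2b 0.17 and 0.21. Only tumours 4 and 6 remain without the Eif2s3y tumours. Cdkn1a had 0.31 to 0.67, Cdkn2b 0.02 to 0.48, Mdm2 -0.34 to -0.17 and Trp53inp1 -0.31 to -0.02 with 1 array left out. Trp53inp1 turned positive with the covariate (0.058) and without the Eif2s3y tumours (0.085). Bbc3 turned negative in those settings (-0.14 and -0.18), without normal lungs 2 and 4 (-0.020) and without tumour 3 or 5, and had -0.021 to 0.090 with 1 array left out. Members called higher numbered 1 in the 3 settings that cost Cdkn2a its call, and 1 to 3 with 1 array left out, against 2 to 2 lower. Other p53 targets called lower numbered 1 with the covariate, without the Eif2s3y tumours and with all probe sets of a gene averaged, and 2 to 3 with 1 array left out (6 to 7 higher). Regulators of p53 called higher numbered 1 with the covariate and without normal lungs 2 and 4, 5 with median centring, and 3 to 4 with 1 array left out (3 to 3 lower). INK4 partners called higher numbered 3 with probe sets averaged and without normal lungs 2 and 4, and 4 to 6 with 1 array left out (7 to 8 lower). Regulators of the Ink4 locus called higher numbered 5 with probe sets averaged and 6 with median centring, and 2 to 5 with 1 array left out, the 5 being without tumour 1. Those called lower numbered 3 with probe sets averaged and 5 to 5 with 1 array left out. The replicate block changed no member's call (Cdkn2a 1.04, limma adjusted p = 0.0468). Over all probe sets, 4529 were called higher and 6279 lower, against 2603 and 4069 with the covariate, 3003 and 4819 without normal lungs 2 and 4, 3188 and 4719 without the Eif2s3y tumours, and 7431 and 4566 with median centring. The share of calls that were higher was 41.9%, against 50.6% with quantile normalization and 61.9% with median centring, which moved the median difference of all probe sets to 0.05 and 0.13, against -0.06. The cause of these changes was not tested.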
